A study of Mus musculus with 12 samples.

Results

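Glucocorticoids are made and inactivated inside the gut wall as well as in the adrenal gland, and 7 genes of that local system were followed here in the ileum of mice that drank zinc sulphate (ZnSO4), received the synthetic glucocorticoid dexamethasone (Dex), or both. The members were the rows of the count table whose Ensembl identifier maps to Nr5a2, Cyp11a1, Cyp11b1, Hsd11b1, Hsd11b2, Akr1c14 or H6pd. All 7 were found among 54838 genes. The 12 mice were wild-type C57BL/6J, with 3 mice in each of 4 groups. Mice of the water + PBS group drank normal water for 7 days and were injected with PBS, those of the water + Dex group drank normal water and were injected with 200 µg Dex dissolved in PBS, and the ZnSO4 + PBS and ZnSO4 + Dex groups drank 25 mM ZnSO4 for 7 days before the same injections. Ileum was sampled 2 h after the injection in all groups. Per the study's methods these were adult females from a commercial breeder. The tissue was whole rinsed ileum, so that epithelium, stroma, muscle and immune cells were measured together and fewer cells of a type cannot be told apart from less RNA per cell.

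Corticosterone, the main glucocorticoid of the mouse, is made from cholesterol by a chain of enzymes that starts with CYP11A1, which cuts the cholesterol side chain, and ends with CYP11B1, which adds the hydroxyl group that makes the steroid active. In the adrenal cortex this chain is under the control of the nuclear receptor SF-1 (Nr5a1), and in the intestinal epithelium the related receptor LRH-1 (Nr5a2) takes that place. Once made, or once it arrives with the blood, corticosterone is oxidised to an inactive keto form by HSD11B2, and HSD11B1 can turn that form back into corticosterone. The direction of HSD11B1 depends on NADPH inside the endoplasmic reticulum, which is supplied there by hexose-6-phosphate dehydrogenase (H6pd). AKR1C14 is a hydroxysteroid dehydrogenase that acts on A-ring-reduced steroids, a further route of steroid clearance.

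Between 10760132 and 11827487 reads were counted on genes per library. Levels are given as normalised read counts, that is counts scaled to a mean effective library of 11377723 reads after TMM normalisation, and differences as log2 fold changes (LFC) with their standard error (SE) and a Benjamini-Hochberg adjusted p over 15938 tested genes from edgeR's quasi-likelihood test. A gene was said to rise or fall at an adjusted p under 0.05. Both treatments could be seen in their known target genes. Fkbp5, a classical glucocorticoid target, lay between 949.95 and 1222 normalised counts in the 6 PBS libraries and between 10263 and 12396 in the 6 Dex libraries. Mt1, a metallothionein that responds to zinc, lay between 490.3 and 1376 in the 6 water libraries and between 11971 and 27940 in the 6 ZnSO4 libraries. Of the markers checked, all 5 enterocyte genes and all 3 genes of distal enterocytes (Fabp6, Slc10a2, Slc51a) were present in every library, with sums of 53604 to 98661 and of 59371 to 113821 normalised counts. Markers of other tissues differed between single libraries, and those of some cell types also differed between groups. Liver markers (Alb, Apoa2 and Serpina1a) summed to 4067 in water + Dex replicate 3 and 2339 in ZnSO4 + Dex replicate 2, against 22.3 to 591 elsewhere. Adipocyte markers ranged from 257 to 1898, B cell markers from 114 to 5277 and smooth muscle markers from 13364 to 28142. Smooth muscle sums were 19210 to 28094 in ZnSO4 + Dex, above water + PBS (up to 17477) and water + Dex (up to 17902). Those of ZnSO4 + PBS (15639 to 28142) overlapped with the other groups. Mast cell sums were 916 to 1175 in ZnSO4 + Dex and at most 801 elsewhere. T cell sums were at most 544 in ZnSO4 + PBS and 308 in ZnSO4 + Dex, and at least 582 in the water groups. No liver, adipocyte, B cell, stromal, Paneth cell or pancreas marker was called in any comparison. Of 4 T cell markers, 1 was lower with ZnSO4 under PBS, 2 with ZnSO4 under Dex and 4 in ZnSO4 + Dex against water + PBS. In each of the 3 comparisons of ZnSO4 + Dex with another group 1 mast cell marker was higher, and 1 distal enterocyte marker was higher in each of water + Dex against water + PBS, ZnSO4 + Dex against ZnSO4 + PBS and ZnSO4 + Dex against water + PBS. In the last of these 1 of 5 enterocyte markers was lower and 1 of 4 smooth muscle markers higher. Of 4 crypt markers, 1 was higher with ZnSO4 under PBS and 1 was lower in each Dex comparison, and 1 of 4 macrophage markers was higher with Dex on ZnSO4. The part of such cells in the results was not tested, other than by fits with the B cell, liver, adipocyte or smooth muscle markers as a covariate.

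**Figure D1:**
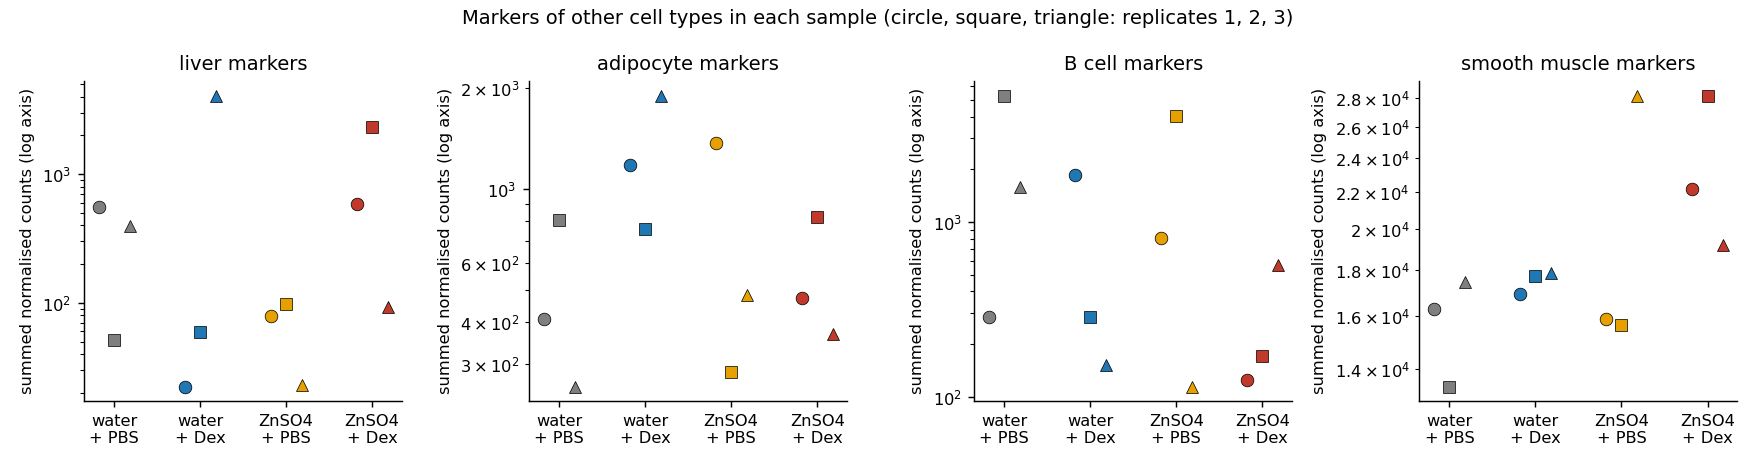
Summed normalised counts (log axis) of marker genes of liver, adipocytes, B cells and smooth muscle in each of the 12 ileum libraries, by group, with 1 symbol per library. The liver markers stand at 4067 in water + Dex replicate 3 and at 2339 in ZnSO4 + Dex replicate 2, and lie at or below 591 in the other libraries.

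Transcripts of LRH-1, the receptor that drives the local synthesis, rose after Dex and were at like levels with and without ZnSO4. Nr5a2 (ENSMUSG00000026398, chr1:136842571-136960448 of GRCm38, minus strand) had 812, 597 and 727 normalised counts in the 3 water + PBS mice, and 670.4, 694 and 721 in the 3 ZnSO4 + PBS mice. The water + Dex mice had 1047, 1084 and 1062, and the ZnSO4 + Dex mice had 1097, 967 and 952. All 6 Dex-injected mice lay above all 6 PBS-injected mice, and the groups that differed only in ZnSO4 overlapped. Group means were 712 ± 108, 695 ± 25.1, 1064.5 ± 18.8 and 1005 ± 79.8 (SD, n = 3) in the same order. Dex raised Nr5a2 by 0.58 on the log2 scale in mice on water (SE 0.10, adjusted p = 0.0033), 1.49-fold with a 95% interval of 1.28 to 1.74, and by 0.53 in mice on ZnSO4 (SE 0.10, adjusted p = 0.0043), or 1.45-fold (1.24 to 1.69). The difference between ZnSO4 and water was -0.04 under PBS (SE 0.10, adjusted p = 0.88), with an interval of -0.26 to 0.19, and -0.08 under Dex (SE 0.10, adjusted p = 0.71), with an interval of -0.30 to 0.14. As folds, those intervals run from 0.84 to 1.14 and from 0.81 to 1.10. The Dex effects on Nr5a2 passed in all 24 alternatives that keep the call rule, and did not reach the size cut-off of 0.8 on the log2 scale.

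Transcripts of the first and the last enzyme of the chain were at the limit of detection. Cyp11a1 (ENSMUSG00000032323, chr9:58006411-58027023, plus strand) had 2, 0 and 2 reads in water + PBS, 0, 0 and 0 in water + Dex, 4, 1 and 2 in ZnSO4 + PBS, and 0, 1 and 0 in ZnSO4 + Dex, 12 reads in all over 12 libraries. Cyp11b1 (ENSMUSG00000075604, chr15:74834125-74841643, minus strand) had 0, 1 and 0 reads, 1, 0 and 3 reads, 0, 0 and 0 reads, and 1, 0 and 2 reads in those groups, 8 reads in all. A count of 0 over the 3 water + Dex libraries allows up to 0.0895 CPM (counts scaled to library size) of Cyp11a1, and a count of 0 over the 3 ZnSO4 + PBS libraries up to 0.0855 CPM of Cyp11b1, for counting error only. Neither gene passed the filter on low counts, so neither was tested and no fold change is given. Which cells the few reads came from was not measurable, and 22.6% of the 31-base stretches of Cyp11b1 also occur in other genes, among them Cyp11b2. Some genes with known roles in adrenal steroid synthesis were near 0 as well. Nr5a1 and Cyp21a1, the adrenal steroid 21-hydroxylase, had no read in any library, Hsd3b1 had 1 read in all, and Cyp11b2, the aldosterone synthase, had 0 to 2 reads per library. Other genes of steroid synthesis were not near 0. Normalised counts were 391 to 512 for Stard3, 360 to 509 for Tspo, 229 to 338 for Fdx1, 68.1 to 131 for Fdxr and 150 to 664 for Hsd3b3. Star, which carries cholesterol into mitochondria, had 20 to 42 reads per library, passed the filter and did not differ in any of the 5 comparisons (adjusted p of 0.14 to 0.79).

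**Figure D2:**
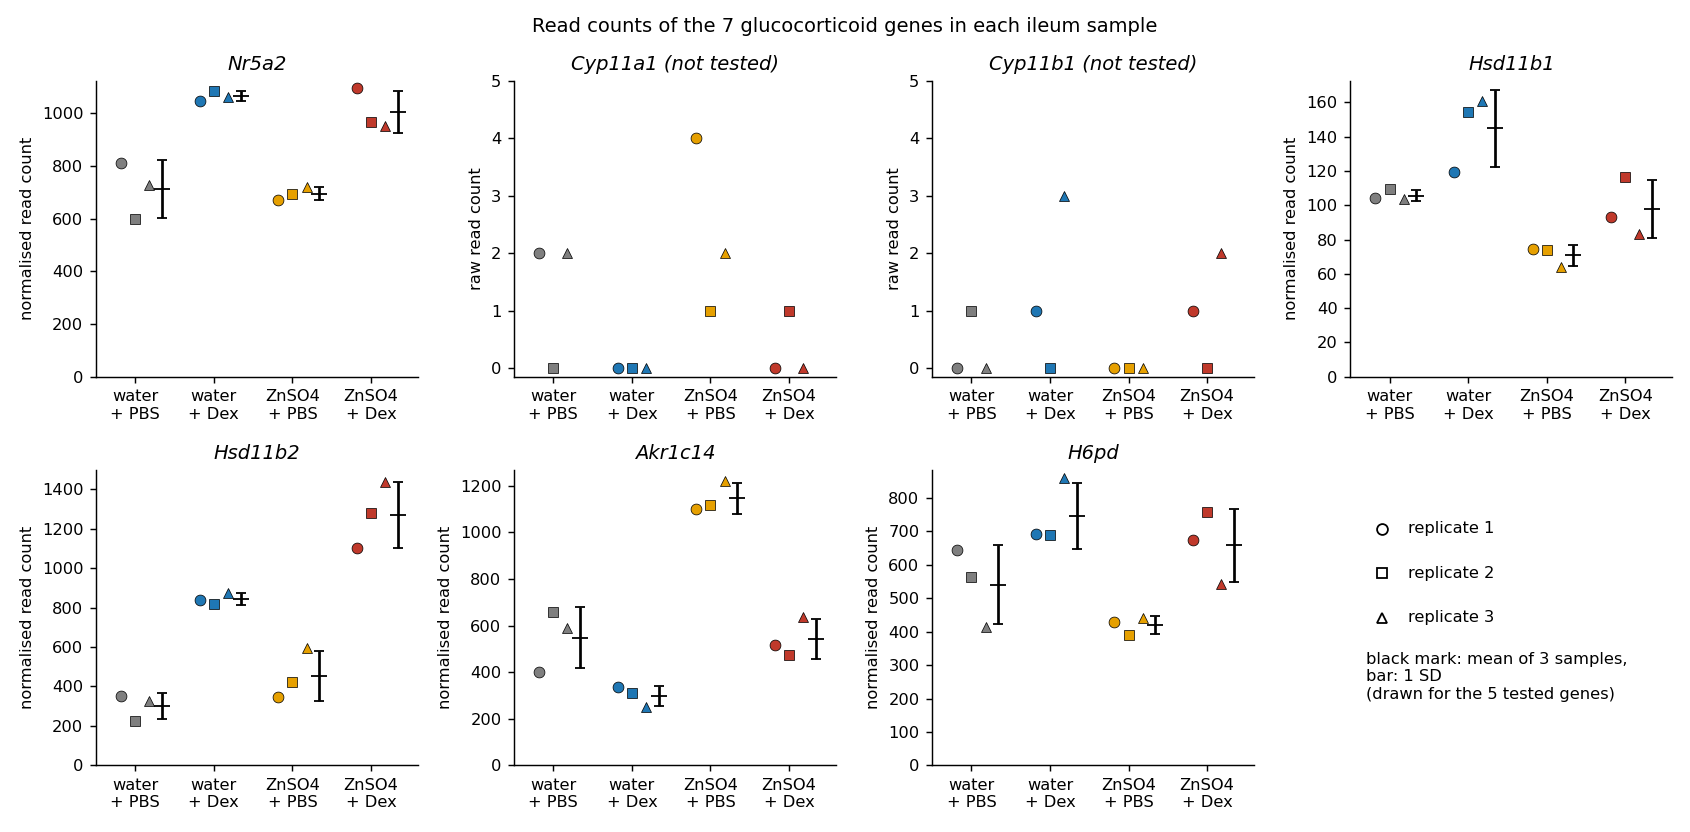
Read counts of the 7 genes in each of the 12 ileum libraries, by group (normalised counts for the 5 tested genes, with the mean and 1 SD of 3 mice, and raw counts for Cyp11a1 and Cyp11b1). Hsd11b2 is highest in ZnSO4 + Dex, between 1100.1 and 1434, Akr1c14 is highest in ZnSO4 + PBS, between 1100.3 and 1221, and Cyp11a1 and Cyp11b1 do not exceed 4 reads.

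Hsd11b2, the enzyme that inactivates corticosterone, had the largest response to Dex among the 5 tested members. It had 352, 227 and 328 normalised counts in the water + PBS mice (302 ± 66.5, SD, n = 3) and 836, 818 and 874 in the water + Dex mice (843 ± 28.9). The gene is ENSMUSG00000031891, at chr8:105518755-105523988, plus strand, and shares no 31-base stretch with another gene. In ZnSO4 + PBS mice it had 347, 421 and 593 (454 ± 126), and in ZnSO4 + Dex mice 1100.1, 1278 and 1434 (1271 ± 167). Both Dex groups lay above both PBS groups with no overlap, and the ZnSO4 + Dex mice lay above the water + Dex mice, whereas the ZnSO4 + PBS mice overlapped with the water + PBS mice. Dex raised Hsd11b2 by 1.48 on the log2 scale in mice on water (SE 0.20, adjusted p = 5.9e-04), 2.79-fold (2.06 to 3.76), and by 1.49 in mice on ZnSO4 (SE 0.19, adjusted p = 3.8e-04), 2.80-fold (2.08 to 3.76). With both treatments the level was 4.20-fold that of the controls (LFC 2.07, SE 0.20, adjusted p = 3.2e-05). The differences between ZnSO4 and water were 0.58 under PBS (SE 0.20, interval 0.15 to 1.02, adjusted p = 0.12) and 0.59 under Dex (SE 0.19, interval 0.18 to 1.01, adjusted p = 0.11), and did not pass the test. Both passed with DESeq2 (adjusted p = 0.045 and 0.043), and the range over all alternative settings was 0.045 to 0.40 and 0.028 to 0.50. The ZnSO4 + PBS replicate 3 library, the highest of its group for Hsd11b2, was also the highest of all for smooth muscle markers (28142, against 15639 and 15895 in the other two). The part of those cells in the result was not tested beyond fits with the markers as a covariate, under which both Dex effects passed.

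Hsd11b1, which works in the opposite direction, was low throughout. It had 104, 109 and 104 normalised counts in the water + PBS mice (106 ± 3.21, SD, n = 3), 74.5, 74.1 and 63.9 in the ZnSO4 + PBS mice (70.8 ± 6.0), 119, 154 and 161 in the water + Dex mice (145 ± 22.4), and 93.3, 116 and 83.3 in the ZnSO4 + Dex mice (97.6 ± 16.9). Within each injection all 3 ZnSO4 mice lay below all 3 water mice, and within each kind of drinking water all 3 Dex mice lay above all 3 PBS mice. None of these differences passed the adjusted test. Differences between ZnSO4 and water were -0.58 under PBS (SE 0.16, interval -0.92 to -0.23, adjusted p = 0.062) and -0.57 under Dex (SE 0.15, interval -0.91 to -0.23, adjusted p = 0.064). The differences between Dex and PBS were 0.46 on water (SE 0.15, adjusted p = 0.092) and 0.46 on ZnSO4 (SE 0.16, adjusted p = 0.077). The ZnSO4 + Dex group as a whole overlapped with the controls, with a difference of -0.11 (interval -0.45 to 0.23, adjusted p = 0.64).

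The calls on Hsd11b1 moved to either side of the threshold with single libraries. HSD11B1 is abundant in liver and fat. The 2 libraries highest in liver markers were water + Dex replicate 3 and ZnSO4 + Dex replicate 2. Both were also the highest of their groups for Hsd11b1 (161 and 116). The part of liver or fat RNA in these values was not tested beyond the fits given here. Without ZnSO4 + Dex replicate 2 the ZnSO4 difference passed under PBS (LFC -0.58, adjusted p = 0.038) and under Dex (LFC -0.71, adjusted p = 0.037), and without both libraries it passed under PBS (adjusted p = 0.049). Under Dex it also passed with DESeq2 (adjusted p = 0.044), with the liver markers as a covariate (LFC -0.64, adjusted p = 0.036) and without water + Dex replicate 1 (adjusted p = 0.0497). Over all alternatives the adjusted p lay between 0.038 and 0.20 under PBS and between 0.036 and 0.33 under Dex, and the LFC stayed below 0 in all of them. The Dex difference passed on water without water + Dex replicate 1 (LFC 0.58, adjusted p = 0.049, range 0.049 to 0.38), and on ZnSO4 without ZnSO4 + Dex replicate 3 (LFC 0.56, adjusted p = 0.048) or with the adipocyte markers as a covariate (LFC 0.53, adjusted p = 0.048, range 0.048 to 0.34).

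The Hsd11b1 gene (ENSMUSG00000016194, chr1:193221634-193264075, minus strand) has a RefSeq start site inside that span. The 250 bases before this start site are shown because, of the 5 members with a RefSeq promoter entry, only this one had a metal response element, the motif bound by the zinc-sensing factor MTF1. The capitals mark the element, GNGTGCA on the strand shown.
Hsd11b1, GRCm38.p6 chr1:193242361-193242610, minus strand: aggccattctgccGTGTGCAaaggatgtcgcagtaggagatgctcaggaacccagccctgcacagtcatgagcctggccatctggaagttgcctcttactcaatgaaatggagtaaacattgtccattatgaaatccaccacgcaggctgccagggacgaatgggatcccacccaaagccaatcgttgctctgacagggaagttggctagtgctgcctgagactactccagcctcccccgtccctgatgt
The motif begins 237 bases before the start site. It is common, since TGCACNC or TGCGCNC occurs on either strand in 25.7% of 32851 RefSeq promoter windows of 300 bases, so the match is a description of the sequence and not of a bound site.

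The transcript balance of both 11β-hydroxysteroid dehydrogenases shifted with each treatment. Per kilobase of exon, water + PBS mice had 7.79, 4.78 and 7.29 Hsd11b2 reads for each Hsd11b1 read, and water + Dex mice had 16.1, 12.2 and 12.5. ZnSO4 + PBS mice had 10.7, 13.1 and 21.3, and ZnSO4 + Dex mice had 27.1, 25.3 and 39.5. The controls were the lowest and the ZnSO4 + Dex mice the highest group, with no overlap between them and any other group, and both groups with a single treatment overlapped. On the log2 scale the ratio of Hsd11b1 to Hsd11b2 was -2.69 ± 0.38, -3.75 ± 0.22, -3.85 ± 0.51 and -4.91 ± 0.35 (SD, n = 3) in water + PBS, water + Dex, ZnSO4 + PBS and ZnSO4 + Dex. Dex lowered it by 1.06 on water and by 1.06 on ZnSO4, and ZnSO4 lowered it by 1.15 under PBS and by 1.15 under Dex. Each effect, averaged over both levels of the other treatment, had p = 0.005 in a two-sided exact permutation test within those levels, the smallest p that 400 arrangements can give, and the same after adjustment for 2 tests. That p is not adjusted over genes or gene pairs, and how many other pairs reach it was not computed. On their own, the ZnSO4 differences of Hsd11b1 and Hsd11b2 did not pass edgeR's adjusted test (adjusted p of 0.062 to 0.12). The members were chosen with earlier results of these data known. Averaged in that way, Hsd11b2 relative to Hsd11b1 was 2.09-fold higher with Dex and 2.22-fold higher with ZnSO4. With any 1 library left out the p stayed at or below 0.01. The ratio is one of transcripts in whole tissue, and the cells that carry each transcript may differ.

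**Figure D3:**
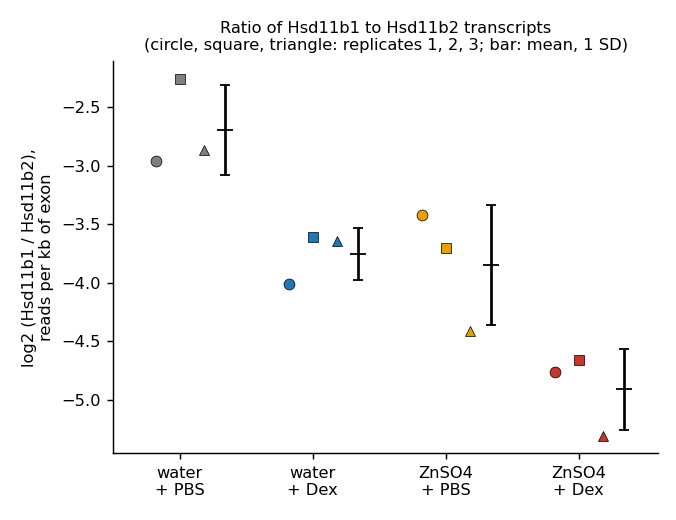
Log2 ratio of Hsd11b1 to Hsd11b2 reads per kilobase of exon in each of the 12 ileum libraries, by group, with the mean and 1 SD of 3 mice. The ratio is highest in water + PBS (mean -2.69), lies at -3.75 and -3.85 with a single treatment, and is lowest in ZnSO4 + Dex (mean -4.91).

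H6pd, the source of NADPH for HSD11B1, rose after Dex in mice on ZnSO4. It had 646, 564 and 413 normalised counts in the water + PBS mice (541 ± 118, SD, n = 3) and 691, 689 and 861 in the water + Dex mice (747 ± 98.8). ZnSO4 + PBS mice had 429.9, 389 and 441 (419.9 ± 27.4), and ZnSO4 + Dex mice had 675, 759 and 541 (658 ± 109.7). Within each kind of drinking water the Dex mice lay above the PBS mice with no overlap. The Dex effect was 0.65 on ZnSO4 (SE 0.17, adjusted p = 0.022), 1.57-fold (1.22 to 2.02), and 0.47 on water (SE 0.16, interval 0.11 to 0.83, adjusted p = 0.11), where it did not pass. Whether both differ was covered by the interaction, 0.18 (SE 0.23, adjusted p = 0.97). The call in mice on ZnSO4 was lost without ZnSO4 + PBS replicate 1 (adjusted p = 0.062), ZnSO4 + PBS replicate 2 (0.080), ZnSO4 + Dex replicate 1 (0.069) or ZnSO4 + Dex replicate 2 (0.082), and with the liver markers (0.13) or the smooth muscle markers (0.055) as a covariate, in a range of 0.0034 to 0.13 over all alternatives. Water + Dex replicate 3 and ZnSO4 + Dex replicate 2, with the most liver marker reads, were again the highest of their groups. Without both, the Dex effect on ZnSO4 was 0.54 (adjusted p = 0.080). The part of liver RNA in it was not tested beyond these fits. ZnSO4 and water differed by -0.37 under PBS (SE 0.17, adjusted p = 0.25) and by -0.18 under Dex (SE 0.16, adjusted p = 0.60).

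The promoters of H6pd and of Nr5a2, the members that rose after Dex and have a RefSeq promoter entry, are shown with the hexamer AGAACA in capitals, which is 1 arm of the glucocorticoid response element, on either strand. The H6pd gene is ENSMUSG00000028980 at chr4:149979475-150009023, and its RefSeq start site lies inside that span.
H6pd, GRCm38.p6 chr4:150003237-150003486, minus strand: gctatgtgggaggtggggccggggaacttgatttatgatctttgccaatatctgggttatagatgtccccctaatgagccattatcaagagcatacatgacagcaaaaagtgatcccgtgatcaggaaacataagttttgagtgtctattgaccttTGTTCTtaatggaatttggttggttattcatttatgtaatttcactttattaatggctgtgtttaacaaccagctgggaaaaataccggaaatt
Nr5a2, GRCm38.p6 chr1:136960449-136960698, minus strand: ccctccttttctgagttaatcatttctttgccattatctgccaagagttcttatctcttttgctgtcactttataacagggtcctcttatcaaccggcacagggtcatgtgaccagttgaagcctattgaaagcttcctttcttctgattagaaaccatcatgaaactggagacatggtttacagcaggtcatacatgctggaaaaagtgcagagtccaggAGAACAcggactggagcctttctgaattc
The hexamer begins 94 bases before the H6pd start site and 29 bases before that of Nr5a2, and a second Nr5a2 start site has it 188 bases upstream. Such hexamers are in 19.0% of the 32851 windows. The full element, AGAACA followed by any 3 bases and TGTTCT, was in 3 of them (0.009%) and in no window of a member, and the LRH-1 motif CAAGGTCA was in 1.56% and in no window of a member either. Entries were present for 5 of the 7 members, and Hsd11b2 and Cyp11b1 had none.

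Akr1c14 responded to both treatments in opposite directions. It had 402, 657 and 588 normalised counts in the water + PBS mice (549 ± 132, SD, n = 3), and 1100.3, 1117 and 1221 in the ZnSO4 + PBS mice (1146 ± 65.4). Water + Dex mice had 337, 310.0 and 253 (299.8 ± 42.8), and ZnSO4 + Dex mice had 516, 474 and 638 (543 ± 85.0). The ZnSO4 + PBS mice were the highest and the water + Dex mice the lowest, without overlap with any other group, and the mice with both treatments lay within the range of the controls. ZnSO4 raised Akr1c14 by 1.06 on the log2 scale under PBS (SE 0.17, adjusted p = 0.0062), 2.09-fold (1.61 to 2.71), and by 0.85 under Dex (SE 0.18, adjusted p = 0.019), 1.81-fold (1.39 to 2.36). Dex lowered it, with an LFC of -0.87 on water (SE 0.18, adjusted p = 0.0080) and -1.08 on ZnSO4 (SE 0.17, adjusted p = 0.0013). Between ZnSO4 + Dex and the controls the difference was -0.02 (SE 0.17, adjusted p = 0.96), with an interval of -0.39 to 0.36. The effect of ZnSO4 under Dex lost its call without water + Dex replicate 2 (adjusted p = 0.063), water + Dex replicate 3 (0.079) or ZnSO4 + Dex replicate 3 (0.055), without both libraries high in liver markers (0.078), and with the adipocyte markers as a covariate (LFC 0.70, adjusted p = 0.14), in a range of 2.3e-04 to 0.14. The other 3 calls of single treatments held in all alternatives that keep the call rule.

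Akr1c14 (ENSMUSG00000033715, chr13:4049011-4090688, plus strand) lies in a cluster of related genes on chromosome 13, and 7.23% of its 31-base stretches also occur in Gm18857, Akr1c18 or Akr1c20. Akr1c19, in the same cluster, rose with ZnSO4 in the same comparisons (given with the clearance genes), so the 250 bases before both start sites are set side by side, with the metal response element in capitals. Each of these RefSeq start sites lies inside the annotated span of its gene.
Akr1c14, GRCm38.p6 chr13:4059341-4059590, plus strand: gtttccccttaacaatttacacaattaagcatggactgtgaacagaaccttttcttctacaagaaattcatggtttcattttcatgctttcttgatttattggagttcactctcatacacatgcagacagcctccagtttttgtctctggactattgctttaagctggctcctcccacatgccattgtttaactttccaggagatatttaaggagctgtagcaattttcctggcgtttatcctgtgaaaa
Akr1c19, GRCm38.p6 chr13:4233490-4233739, plus strand: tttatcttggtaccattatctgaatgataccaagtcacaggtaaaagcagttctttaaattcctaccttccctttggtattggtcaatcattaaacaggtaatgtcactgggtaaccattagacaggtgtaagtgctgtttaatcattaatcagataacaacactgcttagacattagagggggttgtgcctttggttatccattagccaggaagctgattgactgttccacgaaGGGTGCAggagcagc
Akr1c19 has the element 15 bases before its start site. None of the 4 motifs was found in the Akr1c14 window, which says only that those letters are not there.

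**Figure D4:**
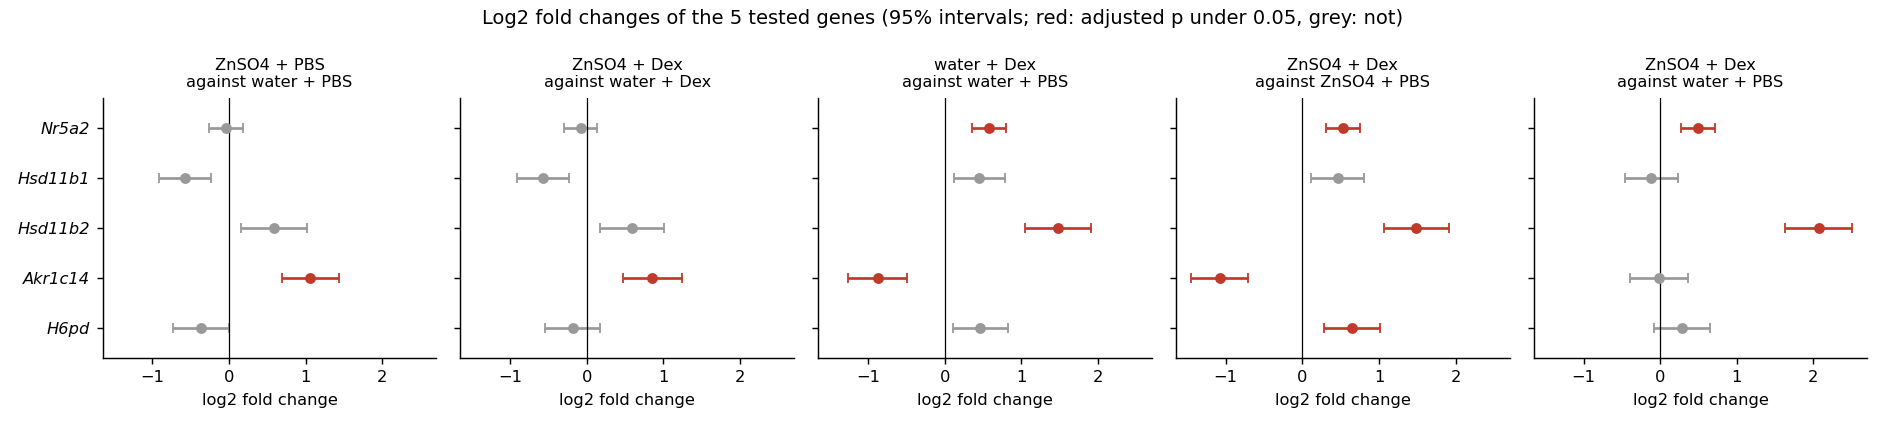
Log2 fold changes of the 5 tested genes with 95% intervals in the 5 pairwise comparisons (red, adjusted p under 0.05, grey, not). Dex raised Nr5a2 and Hsd11b2 on water and on ZnSO4, and Akr1c14 has opposite signs with ZnSO4 and with Dex and lies at -0.02 with both.

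The counts of members per comparison were read against the share of all 15938 tested genes with the same call. In ZnSO4 + PBS against water + PBS, 1 of the 5 tested members rose (Akr1c14) and none fell in edgeR's test. Of all genes, 2.11% rose and 2.54% fell. An unadjusted p under 0.05 was found for 4 members, and for 3161 of all 15938 genes. DESeq2 called 2 members, and 1060 of all genes. In water + Dex against water + PBS, 2 rose (Nr5a2 and Hsd11b2) and 1 fell (Akr1c14), with 5.41% of all genes higher and 4.51% lower. For ZnSO4 + Dex against water + Dex, 1 rose (Akr1c14) and none fell, against 1.83% and 2.54% of all genes. An unadjusted p under 0.05 was found there for 3 members, and for 3048 of all 15938 genes. DESeq2 called 3 members, and 1018 of all genes. For ZnSO4 + Dex against ZnSO4 + PBS, 3 rose (Nr5a2, Hsd11b2 and H6pd) and 1 fell (Akr1c14), against 6.65% and 7.08% of all genes. In ZnSO4 + Dex against water + PBS, 2 rose (Nr5a2 and Hsd11b2) and none fell, against 11.5% and 11.9% of all genes, and no further member had an unadjusted p under 0.05. The 5 comparisons share groups and are not independent. The median LFC of the 5 tested members was -0.04, 0.47, -0.08, 0.53 and 0.28 in that order, and that of all tested genes lay between -0.01 and 0.01. With the added cut-off of 0.8 on the size of the LFC, which the study used, Nr5a2 and H6pd no longer counted in any comparison.

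With edgeR no interaction of ZnSO4 and Dex was called for any gene (0% of 15938 genes, with 794 at an unadjusted p under 0.05). DESeq2 called 6 genes, none of them a member. The members had interaction terms of -0.21 to 0.18 on the log2 scale with adjusted p of 0.97 to 0.999 and no unadjusted p under 0.05. Intervals were wide enough to leave room for sizeable departures from additivity. For Hsd11b2 the interval was -0.60 to 0.62, for Hsd11b1 -0.46 to 0.48, for Akr1c14 -0.74 to 0.33, for H6pd -0.33 to 0.69, and for Nr5a2 -0.36 to 0.26.

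Levels of different genes were compared per kilobase of exon. In water + PBS mice, Akr1c14 (14.9 CPM per kilobase, range 10.9 to 17.8) and Hsd11b2 (14.4, range 10.83 to 16.8) led, followed by Nr5a2 (10.6, range 8.89 to 12.1) and H6pd (9.08, range 6.94 to 10.84), and each of these overlapped with the next. Hsd11b1 (2.18, range 2.14 to 2.26) lay below all of them, and Cyp11a1 and Cyp11b1 were at 0.0235 and 0.00929. In ZnSO4 + Dex mice the order was Hsd11b2 (60.7, range 52.5 to 68.5), Nr5a2 (14.98, range 14.2 to 16.3), Akr1c14 (14.7, range 12.9 to 17.3), H6pd (11.1, range 9.09 to 12.7) and Hsd11b1 (2.02, range 1.72 to 2.40). Hsd11b2 there stood apart from the next gene, whereas Nr5a2 and Akr1c14 overlapped. In ZnSO4 + PBS mice Akr1c14 led, at 31.1 (range 29.9 to 33.1), above Hsd11b2 at 21.7 (range 16.6 to 28.3).

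The wider pathway was taken from 5 lists with 54 genes, of which 52 were in the table and 36 were tested. In ZnSO4 + PBS against water + PBS 4 of the 36 rose and 1 fell by edgeR's test (median LFC 0.16), where 2.11% and 2.54% of all genes did. In water + Dex against water + PBS 3 rose and 2 fell (median LFC -0.02), against 5.41% and 4.51% of all genes. Between ZnSO4 + Dex and water + Dex 6 rose and 1 fell (0.03), against 1.83% and 2.54%, between ZnSO4 + Dex and ZnSO4 + PBS 3 rose and 2 fell (-0.07), against 6.65% and 7.08%, and between ZnSO4 + Dex and water + PBS 9 rose and 4 fell (0.15), against 11.5% and 11.9%. Taking both directions, 13.9% of the 36 were called in each Dex comparison, against 9.93% of all genes on water and 13.7% on ZnSO4, the latter close to the background. None had a called interaction in edgeR's test, and 4 had an unadjusted p under 0.05, as did 794 of all 15938 genes.

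Among 8 tested genes of steroid synthesis, those that rose with ZnSO4 were hydroxysteroid dehydrogenases of the Hsd3b family and a ferredoxin. Hsd3b3 had 166, 195 and 213 normalised counts in water + PBS and 485, 574 and 664 in ZnSO4 + PBS, with no overlap. It was 3.00-fold higher with ZnSO4 under PBS (LFC 1.59, SE 0.16, adjusted p = 4.2e-04) and 2.52-fold higher under Dex (LFC 1.33, SE 0.16, adjusted p = 0.0014). Hsd3b2, at 17.1 to 19.1 in water + PBS and 66.0 to 89.8 in ZnSO4 + PBS, had LFC of 2.15 (adjusted p = 9.8e-04) and 1.92 (adjusted p = 0.0021). The pair shares sequence, 37.6% of the 31-base stretches of Hsd3b2 and 11.76% of those of Hsd3b3 occurring in other genes, Hsd3b6 among them. Per the study's methods, reads that mapped to several places were not counted, so reads from shared stretches may be missing. Fdx1, the electron carrier of mitochondrial steroid hydroxylases, rose with ZnSO4 under Dex (LFC 0.38, adjusted p = 0.031) and had an LFC of 0.31 under PBS (adjusted p = 0.066), with an interaction of 0.07 (adjusted p = 0.98). The other tested genes of the list, Star, Stard3, Tspo, Fdxr and Nr0b2, were not called in any comparison. With Dex, none of the 8 was called by edgeR or by DESeq2 on water or on ZnSO4. As edgeR called 9.93% and 13.7% of all genes there, a count of 0 among 8 is near the background. It is not a result about the list. An unadjusted p under 0.05 was found for 0 and 2 of them, and for 3623 and 4196 of all 15938 genes. Cyp17a1 had 0 to 13 reads per library and was not tested.

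Of 10 tested genes of steroid reduction and clearance, edgeR called 2 higher with ZnSO4 under PBS and 2 higher with Dex on water, where 2.11% and 5.41% of all genes rose. DESeq2 called 4 higher with ZnSO4 under PBS (Akr1c12 and Cyp3a11 in addition), and 2 higher and 1 lower, Akr1c19, with Dex on water. Of all 15938 genes, DESeq2 called 1060 and 1732 in these comparisons. The pair that rose with ZnSO4 were Akr1c13 and Akr1c19. Akr1c19 had 447, 430.4 and 409 normalised counts in water + PBS, 974.9, 953 and 1384 in ZnSO4 + PBS, 271, 349.9 and 231 in water + Dex, and 544, 844 and 766 in ZnSO4 + Dex. Its LFC with ZnSO4 was 1.36 under PBS (SE 0.19, adjusted p = 0.0032) and 1.34 under Dex (SE 0.20, adjusted p = 0.0036). Its Dex differences, -0.59 on water (adjusted p = 0.089) and -0.62 on ZnSO4 (adjusted p = 0.052), did not pass in edgeR's test and passed in DESeq2's (adjusted p = 0.039 and 0.013). Over 24 alternatives each, 4 called the difference on water (adjusted p of 0.032 to 0.27) and 10 that on ZnSO4 (0.013 to 0.24), all in the same direction as for Akr1c14. Akr1c13 rose by 1.02 under PBS (SE 0.18, adjusted p = 0.0087) and 0.79 under Dex (SE 0.18, adjusted p = 0.027), and 33.7% of its 31-base stretches also occur in Akr1c12 or Akr1c19. The next gene, Akr1c12, had LFC of 0.42 and 0.32 (adjusted p = 0.079 and 0.19), of which DESeq2 called the first (adjusted p = 0.033, range 0.033 to 0.27).

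Srd5a2, a steroid reductase best known for converting testosterone and also active on corticosteroids, had the largest rise after Dex among the wider genes that passed. It had 29.2, 26.1 and 21.9 normalised counts in water + PBS, 19.8, 21.05 and 21.3 in ZnSO4 + PBS, 110.4, 139 and 136 in water + Dex, and 109, 69.2 and 109 in ZnSO4 + Dex. All 6 Dex mice lay above all 6 PBS mice. The LFC was 2.32 on water (SE 0.20, adjusted p = 2.6e-05), 4.99-fold, and 2.20 on ZnSO4 (SE 0.21, adjusted p = 3.9e-05), 4.59-fold. By edgeR, Srd5a1 was called between ZnSO4 + Dex and the controls (LFC 0.57, adjusted p = 0.027). DESeq2 also called it between ZnSO4 + Dex and water + Dex (adjusted p = 0.044, range 0.044 to 0.30), where edgeR gave an LFC of 0.59 (adjusted p = 0.069). Cyp3a13, a cytochrome that oxidises steroids and drugs, rose after Dex on water (LFC 1.09, SE 0.28, adjusted p = 0.029), and the call was lost without any 1 of the 6 libraries compared (adjusted p up to 0.096). Cyp3a11 was 9.11-fold higher in ZnSO4 + Dex than in the controls (LFC 3.19, SE 0.79, adjusted p = 0.013), with 1036 to 7128 normalised counts against 365 to 549.8, and was not called without water + PBS replicate 1 (adjusted p = 0.051). It had 1274 to 3619 in water + Dex and 469 to 3696 in ZnSO4 + PBS. Neither differed from the controls in edgeR's test (adjusted p = 0.092 and 0.10). Over 24 alternatives each, 7 called the first (adjusted p of 0.0021 to 0.27) and 3 the second (0.0079 to 0.26). Of the 31-base stretches of Cyp3a11, 15.8% also occur in other genes, among them Cyp3a41a and Cyp3a44.

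The glucose-6-phosphate supply of the endoplasmic reticulum, on which H6PD draws, had 7 tested genes. Slc37a4, the transporter that brings glucose-6-phosphate into that compartment, had 303, 369 and 359 normalised counts in water + PBS, 432, 361 and 401 in ZnSO4 + PBS, 502, 511 and 544 in water + Dex, and 743, 628 and 739 in ZnSO4 + Dex. It rose with Dex on water (LFC 0.59, SE 0.10, adjusted p = 0.0031) and on ZnSO4 (LFC 0.82, SE 0.10, adjusted p = 2.7e-04), and was 2.05-fold higher with both treatments than in the controls (LFC 1.03, adjusted p = 3.8e-05). The effect of ZnSO4 was 0.44 under Dex (adjusted p = 0.031) and 0.21 under PBS (adjusted p = 0.28). Slc37a1 rose with Dex on ZnSO4 (LFC 0.34, adjusted p = 0.030). Between ZnSO4 + Dex and the controls, G6pc, the glucose-6-phosphatase of liver, kidney and intestine, was higher (LFC 1.30, SE 0.42, adjusted p = 0.047) with overlap between the groups, and Slc37a2 was lower (LFC -0.93, SE 0.29, adjusted p = 0.039). The calls on Slc37a1, G6pc and Slc37a2 were lost without 7, 8 and 5 of the 12 libraries, each taken alone (adjusted p up to 0.10, 0.18 and 0.13).

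Of the transcripts of both receptors for the steroid, that of the glucocorticoid receptor fell with Dex on water and on ZnSO4. The transcript of the mineralocorticoid receptor passed the test on ZnSO4. Nr3c1, the glucocorticoid receptor, had 3037, 2757 and 2825 normalised counts in water + PBS, 3084, 3073 and 2839 in ZnSO4 + PBS, 1624, 1407 and 1413 in water + Dex, and 1239, 1145 and 1222 in ZnSO4 + Dex. Its LFC with Dex was -0.96 on water (SE 0.08, adjusted p = 1.6e-05) and -1.32 on ZnSO4 (SE 0.08, adjusted p = 1.5e-06), and the interaction of -0.36 was not called (SE 0.11, adjusted p = 0.95). Under Dex the ZnSO4 mice lay below the water mice without overlap, at an LFC of -0.30, which did not pass with edgeR (adjusted p = 0.052) and passed with DESeq2 (adjusted p = 0.013), in a range of 0.013 to 0.20. Nr3c2, the mineralocorticoid receptor, which HSD11B2 shields from corticosterone in salt-transporting epithelia, had 713, 629 and 643 in water + PBS, 800.5, 822 and 847.5 in ZnSO4 + PBS, 584, 531 and 513 in water + Dex, and 569, 595 and 708 in ZnSO4 + Dex. It fell with Dex on ZnSO4 (LFC -0.40, SE 0.09, adjusted p = 0.012), was not called on water (LFC -0.29, adjusted p = 0.076), with an interaction of -0.11 (adjusted p = 0.97), and was not called on ZnSO4 without ZnSO4 + Dex replicate 1 (adjusted p = 0.056). With ZnSO4 under PBS it lay above the controls without overlap, at an LFC of 0.31 (adjusted p = 0.074) that DESeq2 called (adjusted p = 0.040, range 0.040 to 0.22). Abcb1a, an efflux pump that carries steroids among other substrates, had 3785, 4466 and 5633 normalised counts in water + PBS and 12617, 12719 and 7587 in ZnSO4 + PBS, with no overlap. Its LFC of 1.25 (adjusted p = 0.078) was called by DESeq2 (adjusted p = 0.029) and in 9 of 24 alternatives (range 0.016 to 0.22), and 28.2% of the 31-base stretches of Abcb1a also occur elsewhere among the genes.

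Genes reported as targets of LRH-1 were the last list. Of 7 tested, none rose in edgeR's test, or in DESeq2's, in any of the 5 comparisons, but with 5.41% and 6.65% of all genes higher after Dex on water and on ZnSO4, a count of 0 among 7 is near the background and is not a result about the list. The count of those at an unadjusted p under 0.05 in either direction was 1 to 3, against 3048 to 5734 of all 15938 genes. Ccnd1, which encodes cyclin D1, fell with ZnSO4 under PBS (LFC -1.14, SE 0.11, adjusted p = 4.1e-04) and with Dex on water (LFC -0.75, SE 0.11, adjusted p = 0.0014), from 1797, 1378 and 1496 normalised counts in water + PBS to 727, 677 and 719.7 in ZnSO4 + PBS and 933, 927 and 917 in water + Dex. On ZnSO4 its Dex difference was -0.11 (adjusted p = 0.58), and the interaction of 0.64 was not called (adjusted p = 0.95). Of the 4709 exon bases of Ccnd1, 1100 overlap with LTO1 on the opposite strand, and the strand setting of the counting is not given in the sources used here. Ccne1, which encodes cyclin E1, was lower with both treatments than in the controls (LFC -1.09, SE 0.18, adjusted p = 0.0014). Slc51b, which encodes a subunit of the bile acid exporter of ileal enterocytes, had 2217, 2269.6 and 2906 normalised counts in water + PBS and 3149.6, 3448 and 3633 in water + Dex. Those groups did not overlap, and the LFC of 0.47 did not pass (adjusted p = 0.24), except in a fit of only the groups compared (adjusted p = 0.045, range 0.045 to 0.45 over 24 alternatives). Median LFC of the 7 with Dex were 0.05 on water and -0.11 on ZnSO4.

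**Figure D5:**
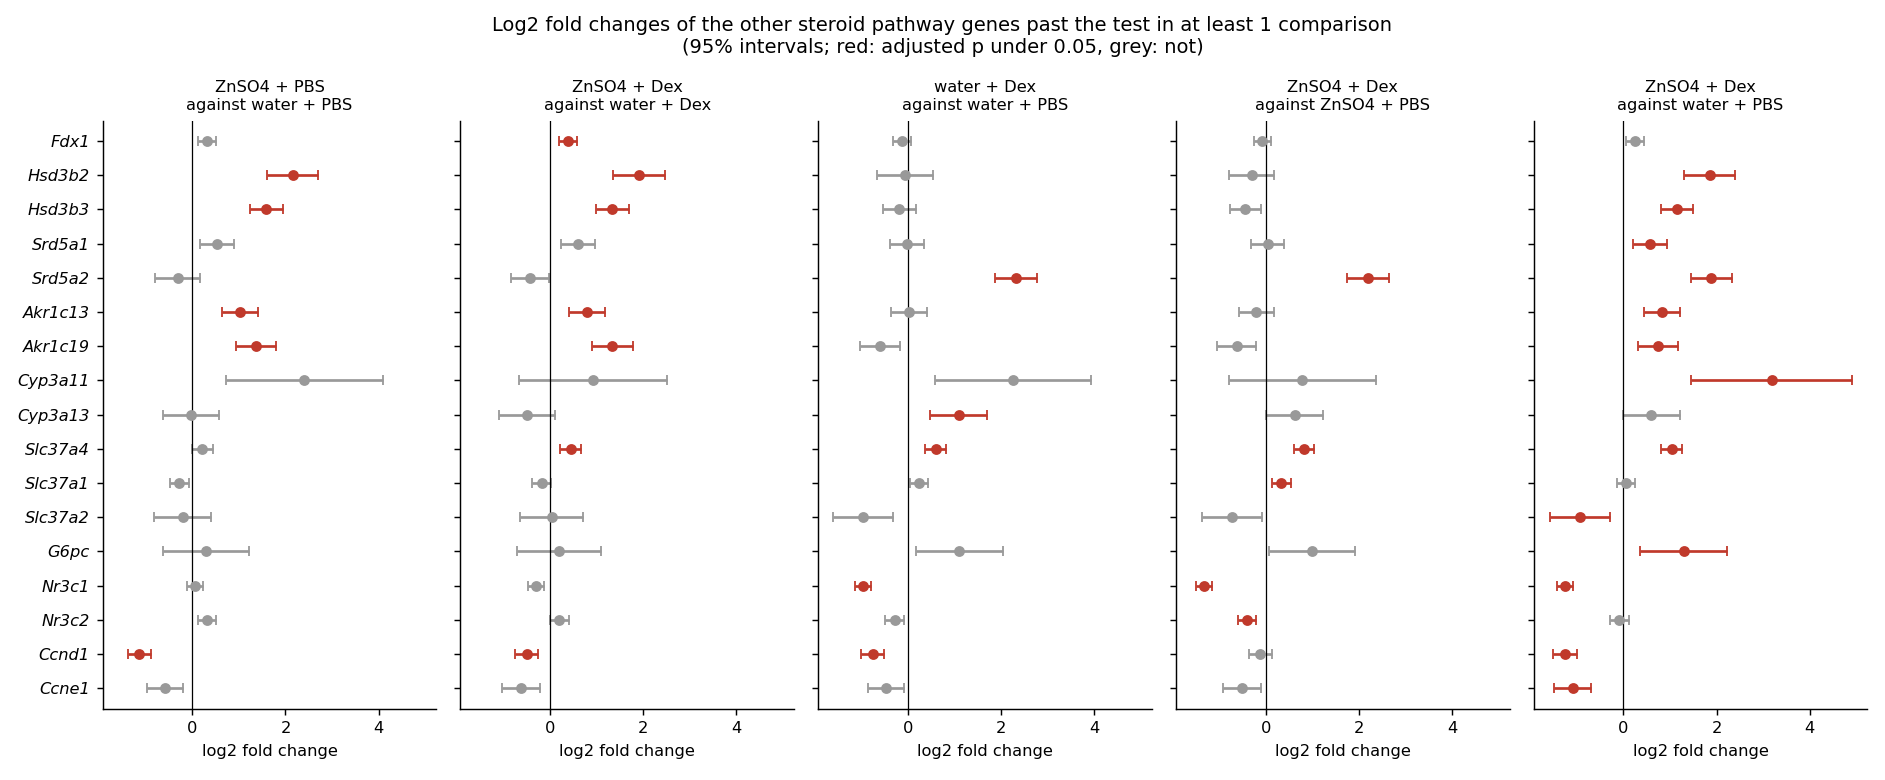
Log2 fold changes with 95% intervals of the 17 other steroid pathway genes past the test in at least 1 of 5 pairwise comparisons (red, adjusted p under 0.05, grey, not). Hsd3b2, Hsd3b3, Akr1c13 and Akr1c19 are higher with ZnSO4 under PBS and under Dex, and Srd5a2 is higher and Nr3c1 lower with Dex on water and on ZnSO4.

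Which of the wider calls rest on single libraries was checked by leaving out each in turn. Of 35 calls on these genes over the 5 comparisons, 23 were kept whichever library was left out. Between ZnSO4 + Dex and water + Dex, the calls on Fdx1 and Akr1c13 were lost without any 1 of the 3 water + Dex libraries and without ZnSO4 + Dex replicate 2 or 3, and those on Slc37a4 and Ccnd1 without any 1 of the 3 water + Dex libraries and without ZnSO4 + Dex replicate 1 or 3 (adjusted p up to 0.12, 0.10, 0.13 and 0.11). Between ZnSO4 + Dex and water + PBS, the call on Akr1c19 was lost without water + PBS replicate 3 or ZnSO4 + Dex replicate 2 (adjusted p up to 0.060), and that on Srd5a1 without water + PBS replicate 2 or 3 or ZnSO4 + Dex replicate 2 or 3 (up to 0.091).

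Genes with the pattern most like each member were ranked by Pearson correlation over the 12 libraries among 14961 genes, a description over points that share 4 groups and their libraries. Nr5a2 was most like Pigh (r = 0.98), Mid2 (0.97) and Slc7a2 (0.97), each of which was higher in both Dex groups. Mid2, for example, had means of 636 and 677 in the PBS groups and 1071 and 1047 in the Dex groups. Hsd11b2 was most like Dock9 (r = 0.97), Rasef (0.97) and Prkaa2 (0.97), a catalytic subunit of the AMP-activated protein kinase with means of 1017, 1547, 1170 and 1952 in water + PBS, water + Dex, ZnSO4 + PBS and ZnSO4 + Dex. Akr1c14 was most like Cutal (r = 0.97), Pcdh19 (0.95) and Spsb4 (0.95), the first with means of 188, 123, 394 and 218 in that order. Hsd11b1 was most like Srp72 (r = 0.97), Sf3a1 (0.94) and Tnfrsf14 (0.93), and H6pd most like Stk39, Ints9 and Wdr48 (each r = 0.94). Among the members themselves r was highest between Nr5a2 and Hsd11b2 (0.85), followed by Hsd11b1 with H6pd (0.80) and Nr5a2 with H6pd (0.77). Akr1c14 had negative r with Hsd11b1 (-0.93), H6pd (-0.87), Nr5a2 (-0.75) and Hsd11b2 (-0.39).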

How the data were processed

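RNA of 12 mouse ileum samples was sequenced from stranded TruSeq libraries with single-end reads. According to the submitters' processing notes, Trimmomatic, HISAT2 2.0.4, SAMtools and featureCounts were used with mm10, and the authors deposited raw counts per Ensembl gene, one table for all samples. Per the study's methods, reads that mapped to several places were left out of the counts. The annotation release and strand setting are not given in the sources used here. Symbols and positions came from GENCODE M21 (GRCm38) for 54723 of 54838 genes, and promoters from RefSeq (GRCm38.p6).

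The filter on low values was filterByExpr with the 4 groups and a minimum count of 10, and 15938 genes, holding 99.8% of the counts, passed it. They were normalised with TMM and tested with edgeR 4.0.16 (R 4.3.3) by the quasi-likelihood F-test on a model of 4 group means, with p-values adjusted by Benjamini-Hochberg over all genes and 0.05 as the threshold. Intervals are at 95%. CPM are counts scaled to library size. Markers were summed over normalised counts. DESeq2 1.42.0 and other scalings, filters, covariates and sample choices were alternatives. The log2 ratio of Hsd11b1 to Hsd11b2 per kilobase used a prior of 0.5 counts and exact permutation (Python 3.11.15). The statistics were checked on simulated counts. Replicates of a group differed by 8.23 to 45.4 times the sampling variance, so no library was a repeat of another. Replicates are separate mice, and intervals on counts of 0 (3 counts) cover counting error only. The members, gene lists and alternatives were chosen with earlier results of these data known. The wider genes named were those past the threshold in at least 1 comparison, and the 3 genes most like each member were taken by Pearson correlation of log2 CPM among 14961 genes with a mean above 1 CPM.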

Additional observations from a re-analysis of the deposited data

How the results depend on the processing

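Of 715 alternative values of the members' fold changes, 657 kept direction and side of the threshold, 12 lost the call, 12 gained it and 34 turned direction, none of the last in a value past the threshold. Members called moved from 1 to 4 (unadjusted p), 0 (test against a log2 fold change of 0.8), 2 (without both libraries high in liver markers) and 2 (DESeq2) in ZnSO4 + PBS against water + PBS, and from 3 to 5 and 1 (the first and second of these) in water + Dex against water + PBS. In ZnSO4 + Dex against water + Dex the count of 1 moved to 3, 0, 0 and 3 under the same 4 settings, to 2 with the liver covariate, 0 with the adipocyte covariate and 2 with only the groups compared. In ZnSO4 + Dex against ZnSO4 + PBS the 4 moved to 2 (size cut-off of 0.8) and 1 (test against 0.8), and in ZnSO4 + Dex against water + PBS the 2 moved to 1 under both. Leaving out 1 library gave 1 to 2, 3 to 4, 0 to 2, 3 to 5 and 2 to 2 members in these comparisons. Over all genes, the counts called in the first 3 comparisons were 742, 1582 and 696. At an unadjusted p they were 3161, 3623 and 3048, and with DESeq2 1060, 1732 and 1018.

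In the same order of comparisons, the wider pathway counts of 5, 5, 7, 5 and 13 moved to 14, 13, 16 and 14 at an unadjusted p (the last stayed within 1.5 times, and the interaction rose from 0 to 4), and to 2, 1, 1, 2 and 4 when tested against 0.8. In ZnSO4 + PBS against water + PBS, DESeq2 gave 9 and the smooth muscle covariate 8, and in water + Dex against water + PBS the size cut-off gave 3 and only the groups compared 8. In ZnSO4 + Dex against water + Dex the size cut-off and the adipocyte covariate gave 3 each, and the smooth muscle covariate and leaving out both liver-rich libraries gave 4 each. In ZnSO4 + Dex against ZnSO4 + PBS the size cut-off and the liver covariate gave 3 each and the smooth muscle covariate 8. Leaving out 1 library gave 5 to 7, 4 to 6, 3 to 8, 3 to 7 and 10 to 14. Over all genes the counts of 742, 1582, 696, 2189 and 3719 moved to 3161, 3623, 3048, 4196 and 5734 at an unadjusted p. Tested against 0.8, they were 40, 194, 38, 275 and 437. The marker covariates for liver, adipocytes and smooth muscle and the joint removal of 2 libraries were chosen after seeing the data. The cause of these shifts was not tested.

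Reversals were all in differences that were not called. Their reported values were close to 0, except for the Akr1c14 interaction (-0.21) and H6pd in ZnSO4 + Dex against water + Dex (-0.18). Nr5a2 ranged from -0.15 to 0.088 (ZnSO4 under PBS) and from -0.17 to 0.063 (interaction) without 1 library. The interaction of Hsd11b1 was -0.0090 with RLE factors, -0.0081 with genes of at least 1 count, -0.0071 with DESeq2, -0.14 with the liver covariate, -0.06 without both liver-rich libraries, and -0.14 to 0.11 without 1 library. That of Hsd11b2 was -0.0054 with RLE factors, -0.0041 with genes of at least 1 count, -0.0091, -0.30 and -0.013 with the liver, adipocyte and smooth muscle covariates, -0.0055 with DESeq2, and -0.15 to 0.25 without 1 library. Akr1c14 in ZnSO4 + Dex against water + PBS was 0.0088 with upper quartile factors, 0.18, 0.090 and 0.043 with the B cell, liver and smooth muscle covariates, 0.072 without both liver-rich libraries and -0.20 to 0.13 without 1 library, and its interaction was 0.012 with the liver covariate. H6pd in ZnSO4 + Dex against water + Dex was 0.11 with the adipocyte covariate.

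Replicate numbers recur in all groups, and the labels do not say what they stand for. Deviations of same-numbered samples had a median r of -0.056 over 18 pairs (range -0.36 to 0.46), against 0.023 over 36 others. Such medians cannot show whether same-numbered mice were handled together. With the replicate block, the wider count in ZnSO4 + Dex against water + Dex was 4 (Akr1c19, Hsd3b2, Hsd3b3 and Nr3c1, the last gaining its call at an adjusted p of 0.047), and no member lost or gained its call. The exact p of the Hsd11b1 to Hsd11b2 ratio lay between 0.005 and 0.031. The latter came from sign flips of same-numbered pairs and is the smallest p those flips can give. At a biological coefficient of variation of 0.19 and 3 mice a group, differences like those of Hsd11b1, with LFC of -0.58 to 0.46, lay around the threshold.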
